A study of Mus musculus with 6 samples.

Results

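The EGF-family and neuregulin ligand genes are Areg, Ereg, Hbegf, Tgfa, Btc, Epgn, Egf, Nrg1, Nrg2 and Nrg4, the secreted and membrane-anchored growth factors that bind ErbB receptors. They were followed in spheres grown from mouse mammary tumors. All probes whose RefSeq accession belongs to one of these genes were taken, which gave 12 probes for the 10 genes, of 20660 genes named on the array. The spheres came from mammary tumors of FRS2beta knock-out mice (knockout, 3 arrays) and of mice heterozygous for the same gene (hetero, 3 arrays). Both genotypes thus carry at least 1 altered FRS2beta allele, and no wild-type spheres were compared. How the tumors arose, the strain and the animals' age are not given in the sources used here. The labels number 3 replicates per genotype without saying whether they came from separate animals, tumors or cultures, so p-values here refer only to how these arrays vary, and that variation may be technical. All spheres grew in serum-free medium holding 20 ng/mL of both EGF and bFGF, with 2 mg/mL heparin, so an EGF-family peptide was supplied to both genotypes in addition to what the cells made.

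ErbB ligands are made as membrane-anchored precursors, each with a receptor-binding domain held together by disulphide bonds, and metalloproteases release that domain from the cell surface. Areg, Tgfa, Epgn and Egf bind the EGF receptor. Hbegf, Ereg and Btc bind both the EGF receptor and ErbB4, and the neuregulins bind ErbB3 or ErbB4. In the mammary gland amphiregulin, made by hormone-sensing luminal cells, drives duct growth at puberty. FRS2beta, encoded by Frs3, is an adaptor protein that binds FGF receptors and ErbB receptors.

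Signals are given as scaled log2 signals, the log2 of the processed spot intensity minus the 75th percentile of its array, and fold changes are knockout over hetero. A probe was tested where it was well above background on at least 3 of 6 arrays, and the brightest tested probe stood for its gene. The 75th percentile of the intensity was 465 to 487 on the knockout arrays and 404 to 416 on the hetero arrays. Across genes, arrays of a genotype correlated at 0.995 to 0.998 and arrays of different genotypes at 0.966 to 0.971. These are correlations over genes, which are not independent replicates. Frs3 had a single probe, well above background on 0 of 3 knockout arrays and 1 of 3 hetero arrays, so the genotype labels could not be checked on the targeted gene. The difference between the genotypes was wide: 60.4% of the 15838 genes tested passed an adjusted p of 0.05, and the 3 knockout values and the 3 hetero values did not overlap in 68.9%.

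Most of the ligand genes were higher in knockout spheres, while Nrg1 was lower. Hbegf, Areg, Epgn, Ereg and Btc rose, by between 4.68-fold for Hbegf and 1.11-fold for Btc, Nrg1 fell 1.96-fold, and Egf differed by a small amount whose sign depended on scaling. Tgfa and Nrg2 were above background in knockout spheres alone, and Nrg4 was close to background in both genotypes. In all, 7 of the 10 genes passed as higher and 2 as lower, where 27.8% of all genes tested passed as higher and 32.6% as lower. Tgfa and Nrg2 entered the test only through the knockout arrays and so had to differ. Of the 7 genes above background on all 6 arrays, 5 were higher and 2, Nrg1 and Egf, lower. Where a signal above background on all 6 arrays was required, 4077 of 14567 genes passed as higher and 5157 as lower. In all 7 ligand genes the scaled knockout and hetero values did not overlap, as in 68.9% of all genes tested. In the fit over single probes, 7 ligand probes passed as higher and 1 as lower, where 19.3% of all probes tested passed as higher and 27.6% as lower. Of the 12 ligand probes, the dimmer of Nrg2 and both of Nrg4 were not tested. The Tgfa and Nrg2 probes that passed entered through the knockout arrays alone.

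**Figure D1:**
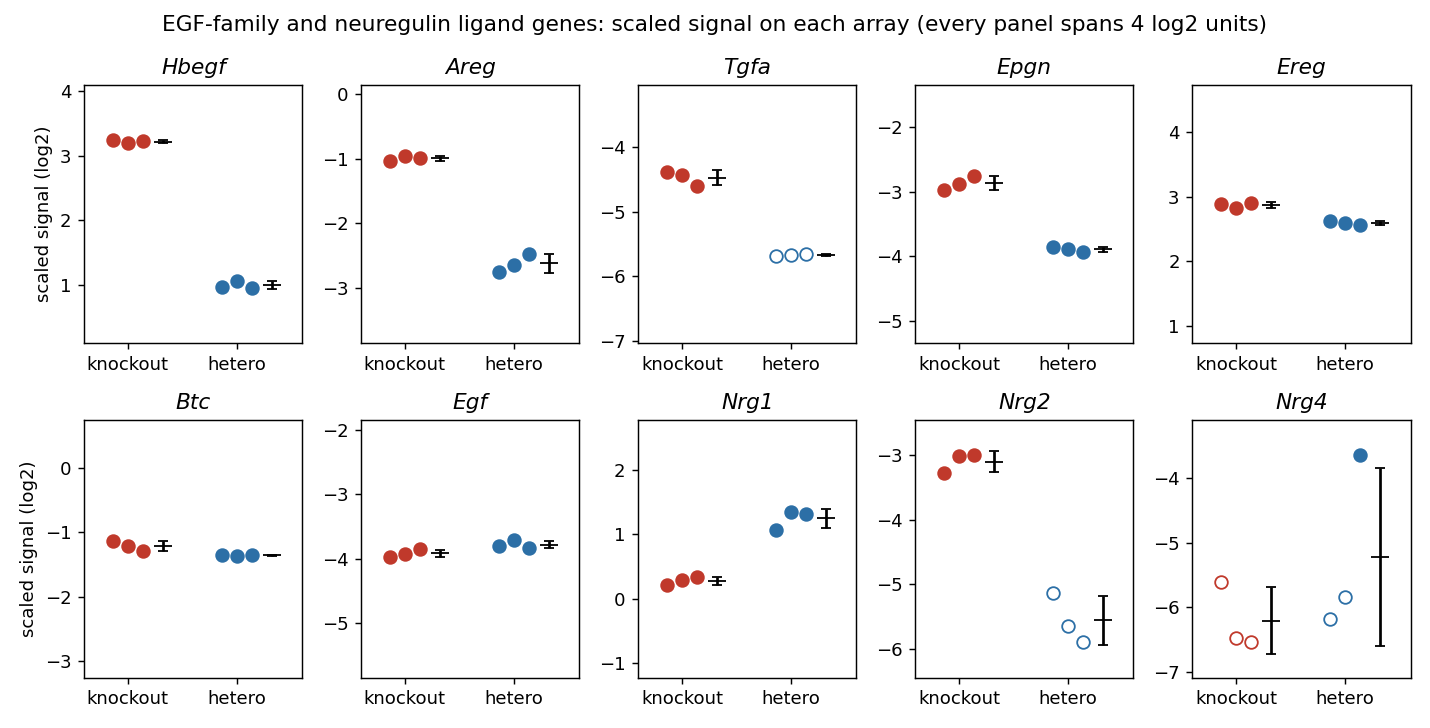
Scaled log2 signal of the brightest probe of each ligand gene, with 1 point per array, knockout (red) left of hetero (blue), and the mean and SD (n = 3 each) as a black bar. Filled points were well above background and open points were not. Hbegf and Areg show the widest gaps among genes above background on all 6 arrays, Nrg1 lies lower in knockout, and a single hetero array carries the Nrg4 signal.

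Among the ligands above background on all 6 arrays, Hbegf and Areg rose most. Hbegf, heparin-binding EGF-like growth factor, had scaled log2 signals of 3.24, 3.20 and 3.22 on the knockout arrays, against 0.96, 1.07 and 0.96 on the hetero arrays. The knockout values lay within 0.05 log2 units of each other and far above all hetero values. Its log2 fold change was 2.23 ± 0.04 (SE, 4.68-fold, adjusted p = 8.27e-07), and 2.61% of all genes tested rose by more. Areg, amphiregulin, had scaled log2 signals of -1.03, -0.96 and -0.99 in knockout spheres, against -2.76, -2.64 and -2.48 in hetero spheres. The hetero arrays were more spread out (SD 0.14, n = 3) than the knockout arrays (SD 0.04, n = 3), and the genotypes did not overlap. Areg rose by 1.63 ± 0.08 log2 units (SE, 3.1-fold, adjusted p = 2.54e-05), and 4.15% of genes rose by more. Normexp background correction, with an offset of 50 intensity units that shrinks dim signals by construction, was followed by quantile normalization. It gave 2.16 for Hbegf and 1.14 for Areg. The log2 fold changes of these 2 genes differed from one another by 0.60 ± 0.08 (SE), and their 95% intervals did not overlap.

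Epgn, Ereg and Btc were higher in knockout spheres by less. Epgn, epigen, a ligand known from skin and other epithelia, had scaled log2 signals of -2.97, -2.87 and -2.76 in knockout spheres, against -3.86, -3.89 and -3.93 in hetero spheres. It rose by 1.03 ± 0.06 log2 units (SE, 2.04-fold, adjusted p = 6.47e-05). Epgn was dim on every array, and its log2 fold change was 0.45 with normexp at the offset of 50 and 0.66 at an offset of 16, past the threshold in both. Ereg, epiregulin, gave a strong signal in both genotypes, at 2.89, 2.82 and 2.90 in knockout spheres, against 2.63, 2.59 and 2.57 in hetero spheres (scaled log2). The Ereg values did not overlap between genotypes, and the rise was 0.27 ± 0.03 log2 units (SE, 1.21-fold, adjusted p = 0.00106). Btc, betacellulin, had scaled log2 signals of -1.14, -1.21 and -1.29 in knockout spheres, against -1.35, -1.37 and -1.36 in hetero spheres. The lowest knockout array lay only just above the highest hetero array. Its rise of 0.15 ± 0.04 log2 units (SE, 1.11-fold, adjusted p = 0.027) was lost under 7 of the 21 other settings, among them both normexp settings (adjusted p = 0.132 and 0.131) and the fits without knockout replicate 2, hetero replicate 1, hetero replicate 2 or hetero replicate 3 (adjusted p = 0.0738, 0.0619, 0.074 and 0.0683). Under spike-in scaling, which shifted all genes upward in knockout spheres, Ereg rose by 0.69 and Btc by 0.57.

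Tgfa, transforming growth factor alpha, was spotted 10 times on each array, which lets single spots be seen. On the knockout arrays all 10 spots were well above background, with median processed intensities of 24.0, 23.3 and 19.7, against medians of 8.24, 7.35 and 8.60 on the hetero arrays. Of the hetero spots, 1 of 10 was above background in replicate 1, 0 of 9 in replicate 2 and 0 of 10 in replicate 3. The lowest knockout spot read 15.2, and the highest hetero spot, the 1 above background, read 17.0. Averaged per array, the scaled log2 signal was -4.39, -4.43 and -4.60 in knockout spheres, against -5.68, -5.67 and -5.65 in hetero spheres. No hetero array was well above background, so the fold was taken against a floor, and by this measure Tgfa was 2.04-fold higher in knockout spheres. The fitted difference had an adjusted p of 3.57e-05, but Tgfa entered the test only through the knockout arrays and so had to differ. For this fold each hetero array was set to its floor, the dimmest probe still called above background there, or to the Tgfa signal if that was greater. Probes brighter than the floor could go uncalled, so the fold is not a strict lower limit. With normexp at the offset of 50 the log2 fold change was 0.21.

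Egf itself, the gene for the factor that was also in the medium, was dim and close to equal. Its probe too was spotted 10 times, and the mean processed intensity over spots that were not outliers was 29.6, 32.1 and 33.1 on the knockout arrays, against 29.6, 30.7 and 29.3 on the hetero arrays. Before scaling, the values of the genotypes thus overlapped. After scaling, the log2 signals were -3.97, -3.92 and -3.86 in knockout spheres, against -3.80, -3.72 and -3.83 in hetero spheres, and all knockout values lay below all hetero values. The scaled difference of -0.14 ± 0.04 log2 units (SE) passed in the gene fit (adjusted p = 0.044), but not in the fit over all 35427 probes (adjusted p = 0.0671). It was 0.28 (adjusted p = 0.00277) with spike-in scaling and 0.08 (adjusted p = 0.221) without scaling between arrays, so neither a fall nor a rise of Egf is settled by these arrays. Feature Extraction marked outlier spots of Egf on all 3 knockout arrays, 1 on replicate 1, 3 on replicate 2 and 1 on replicate 3, and 1 on hetero replicate 3. All outlier spots were left out, among them spots of 163 in knockout replicate 1 and 124 in knockout replicate 3.

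**Figure D2:**
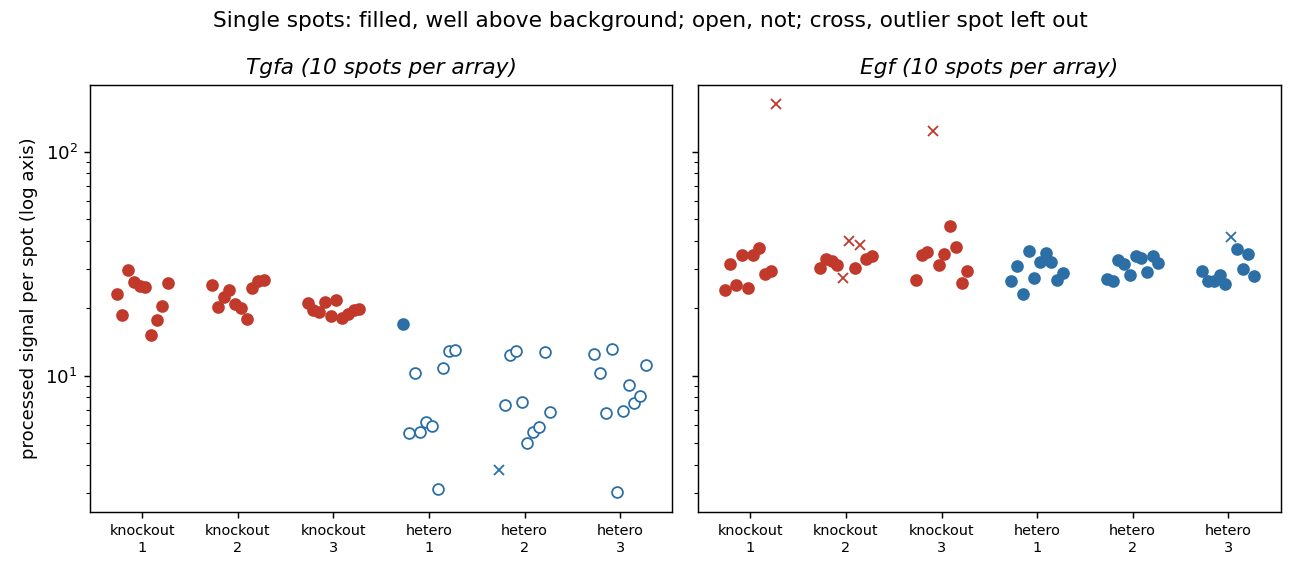
Processed intensity of every Tgfa and Egf spot (log axis) by array, knockout (red) left of hetero (blue), with filled points for spots well above background, open points for spots that were not and crosses for outlier spots left out. All Tgfa spots on the knockout arrays are above background and all but 1 of the hetero spots are not, while the Egf spots of both genotypes largely overlap apart from outlier spots at 163 and 124.

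The neuregulins went in different directions. Nrg1, the neuregulin best known for acting through ErbB3 and ErbB4, had scaled log2 signals of 0.21, 0.29 and 0.33 in knockout spheres, against 1.07, 1.35 and 1.32 in hetero spheres. All knockout values were below all hetero values. Nrg1 fell by 0.97 ± 0.08 log2 units (SE, 1.96-fold lower, adjusted p = 0.000289), and 3.95% of genes fell by more. Nrg1 has many transcript forms and a single probe here, so the value speaks for those that carry the probe's target. Under spike-in scaling, which put the middle of all genes' log2 fold changes at 0.39, against -0.03 with the 75th percentile, the fall was 0.55 (adjusted p = 0.00132).

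Nrg2, a related neuregulin gene, had 2 probes for the same transcript. The brighter probe gave scaled log2 signals of -3.29, -3.01 and -3.01 in knockout spheres, all well above background, against -5.14, -5.66 and -5.90 in hetero spheres, none of them above background. By the floor rule used for Tgfa, Nrg2 was 4.79-fold higher in knockout spheres by this probe, again not a strict lower limit. The fitted difference had an adjusted p of 0.000277, but the probe entered the test only through the knockout arrays and so had to differ. Normexp at the offset of 50 gave a log2 fold change of 0.60. The dimmer Nrg2 probe was well above background on 1 of 3 knockout arrays and 0 of 3 hetero arrays and was not tested. Its scaled log2 signals were -5.62, -6.00 and -7.29 in knockout spheres and -6.41, -7.50 and -6.74 in hetero spheres, which overlap.

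Nrg4, an ErbB4 ligand known from adipose tissue, was not tested, because neither of its 2 probes reached the limit of 3 arrays. On the brighter probe the scaled log2 signal was -5.61, -6.47 and -6.54 in knockout spheres, none above background, against -6.17, -5.83 and -3.64 in hetero spheres. Only hetero replicate 3 stood above background. The other probe gave -6.23, -6.81 and -6.64 in knockout spheres and -6.88, -7.04 and -4.58 in hetero spheres, where hetero replicate 3 was again the highest array although not called above background. Nrg3, the remaining neuregulin gene and also an ErbB4 ligand, was above background on all 6 arrays with a log2 fold change of 0.53 ± 0.22 (SE, adjusted p = 0.0891), short of the threshold.

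**Figure D3:**
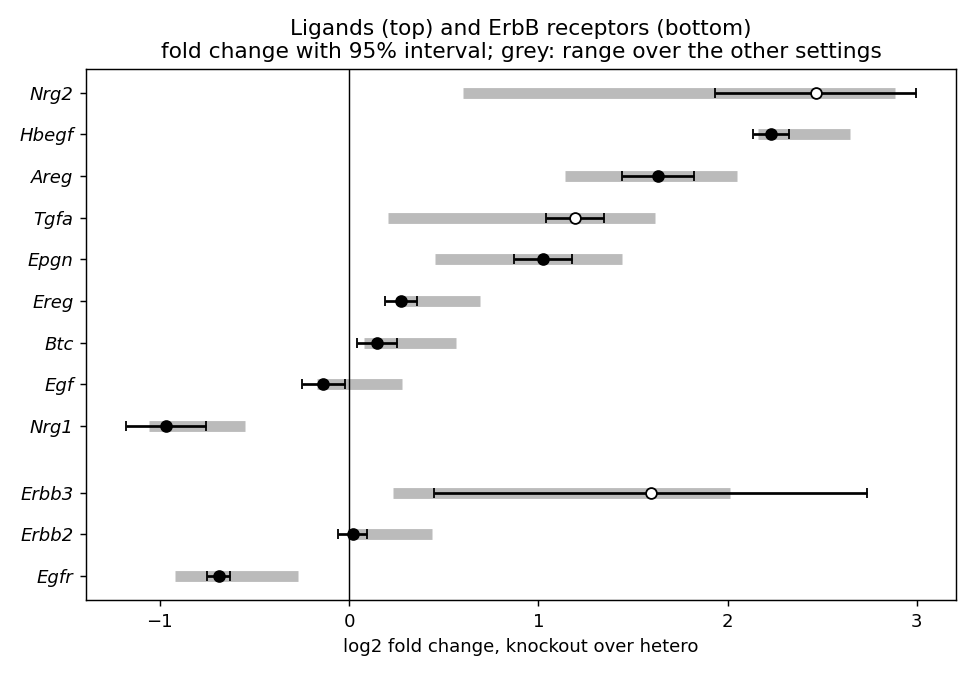
Log2 fold change, knockout over hetero, of the tested ligand genes (top) and ErbB receptor genes (bottom), with 95% intervals, open points for genes not above background on any hetero array and grey bands for the range over the other processing settings. Hbegf and Areg stay above 1 log2 unit in every setting shown, Nrg1 stays below 0, and the band of Egf crosses 0.

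In the order of their log2 fold changes, Nrg2 stood at the top, followed by Hbegf, Areg, Tgfa, Epgn, Ereg, Btc, Egf and Nrg1. The 95% intervals of Nrg2 and Hbegf overlapped, as did those of Tgfa and Epgn and those of Ereg and Btc, and the other neighbours in this order did not overlap. The fitted values of Nrg2 and Tgfa rest on hetero signals below background, so their places in the order are not measured. Hbegf had the largest rise measured on both sides, and the 3 genes outside the chosen lists with the closest array profiles were Sytl1, Llgl2 and Prom1, with a root mean square difference of 0.032 to 0.034 log2 units over 6 arrays. Those closest to Nrg1 were Slc27a3, Nsun7 and Trim30a, at 0.068 to 0.08 log2 units.

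Areg, Ereg, Epgn and Btc lie next to one another on mouse chromosome 5, with no other tested gene between them. All of these ligand genes were higher in knockout spheres, but by unequal amounts: Areg by 1.63 log2 units and Epgn by 1.03, against 0.27 for Ereg and 0.15 for Btc. Of the 10 nearest tested genes outside the ligand group, 5 on either side, 2 were higher, 5 were lower and 3 did not pass. On the side of Epgn, the chemokine genes Pf4, Cxcl3, Cxcl1 and Cxcl2 fell by 2.02 ± 0.03, 0.46 ± 0.13, 0.45 ± 0.03 and 0.82 ± 0.17 log2 units (SE), and the folate enzyme gene Mthfd2l fell by 0.13 ± 0.03. On the side of Btc, Parm1 rose by 0.82 ± 0.02 and the kinase gene Cdkl2 by 0.27 ± 0.05, while Rchy1 (-0.05 ± 0.03), Thap6 (-0.00 ± 0.05) and G3bp2 (-0.04 ± 0.03) did not pass. These neighbours were tested with 75th percentile scaling alone.

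**Figure D4:**
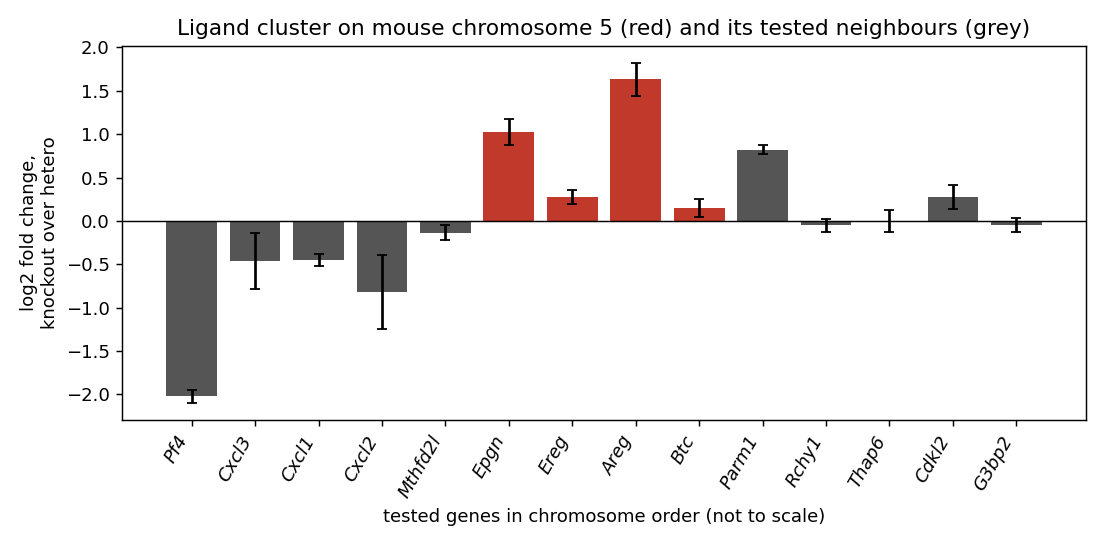
Log2 fold change, knockout over hetero, with 95% intervals, of the tested genes around the ligand cluster on mouse chromosome 5 in gene order, ligand genes in red and neighbours in grey. The ligand genes rise between chemokine genes that are lower in knockout on one side and genes that are higher or did not pass on the other.

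Promoter windows, 250 bases before to 50 bases after the gene start, were taken from RefSeq (GRCm38.p6) for 6 of the 10 ligand genes. These were Egf, Epgn, Areg, Btc, Tgfa and Nrg4. Windows on a chromosome set aside by choice were left out, and Hbegf, Ereg, Nrg1 and Nrg2 were not scanned. Those of Areg, Epgn and Btc are shown because these genes are neighbours that were all higher in knockout spheres by different amounts. Capitals mark matches, on either strand, to TGANTCA, the AP-1 motif, or to TGACGT, the core of the cAMP response element.
Areg, chr5:91139349-91139648, plus strand: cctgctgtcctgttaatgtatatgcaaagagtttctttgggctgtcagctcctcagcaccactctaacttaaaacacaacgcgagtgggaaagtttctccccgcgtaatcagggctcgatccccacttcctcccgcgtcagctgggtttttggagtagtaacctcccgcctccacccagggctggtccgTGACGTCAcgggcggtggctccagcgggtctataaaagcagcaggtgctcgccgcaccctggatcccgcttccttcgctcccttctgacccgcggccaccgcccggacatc
Epgn, chr5:91027267-91027566, plus strand: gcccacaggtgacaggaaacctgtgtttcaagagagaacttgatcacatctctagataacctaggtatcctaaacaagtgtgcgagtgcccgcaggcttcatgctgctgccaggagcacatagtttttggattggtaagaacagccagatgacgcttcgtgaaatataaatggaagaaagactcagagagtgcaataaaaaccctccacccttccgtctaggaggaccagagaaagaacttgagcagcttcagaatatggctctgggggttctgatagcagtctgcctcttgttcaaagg
Btc, chr5:91402945-91403244, minus strand: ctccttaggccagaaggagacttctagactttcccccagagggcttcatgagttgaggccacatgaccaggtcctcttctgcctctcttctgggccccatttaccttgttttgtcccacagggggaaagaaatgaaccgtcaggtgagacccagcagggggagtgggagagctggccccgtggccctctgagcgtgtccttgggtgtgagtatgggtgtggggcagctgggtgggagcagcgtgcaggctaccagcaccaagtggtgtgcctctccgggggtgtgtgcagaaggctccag
The Areg window held the cAMP response element core on both strands, overlapping each other from base 190 to base 197 of the window, whereas the Epgn and Btc windows held neither motif. Among 32851 promoter windows of this length, 7.51% held the cAMP response element core and 7.81% the AP-1 motif. Of the 7 ligand windows scanned, from 6 genes, only that of Areg held either. A match of letters is a description of the window and not a measured site.

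The ErbB receptors, to which these ligands bind, did not move as one. Egfr fell by 0.69 ± 0.02 log2 units (SE, 1.61-fold lower, adjusted p = 9.34e-06), and Erbb2, the co-receptor with no known ligand, differed by 0.02 ± 0.03 (SE, adjusted p = 0.625). With the mean of all its tested probes, in place of the brightest, the log2 fold change of Egfr was -0.92. Under spike-in scaling the fall of Egfr was 0.27, and Erbb2 passed as higher, by 0.44 with spike-in scaling and 0.24 without scaling. Erbb3, which pairs with Erbb2, had scaled log2 signals of -4.97, -5.28 and -4.16 in knockout spheres, all above background, against -6.01, -5.98 and -7.20 in hetero spheres, none above background. By the floor rule used for Tgfa it was 1.65-fold higher in knockout spheres, again not a strict lower limit. The fitted difference passed (adjusted p = 0.0281), but Erbb3 entered the test only through the knockout arrays and so had to differ. Its call was lost under 6 of 20 other settings (adjusted p up to 0.0972), among them the fits without knockout replicate 1 (0.0632) and without knockout replicate 3 (0.0704). Within the slide's first row the Erbb3 difference was 0.87 log2 units and within its second row 3.04. Erbb4 was not above background on any array. Among receptor adaptors 3 of 8 tested genes rose and 4 fell (median log2 fold change 0.01), where 27.8% of all genes passed as higher and 32.6% as lower. The split depended on scaling: 7 adaptors were higher and 0 lower with spike-in scaling, 4 and 0 without scaling, and 3 and 2 with quantile normalization. Grb7, which binds activated ErbB2, rose by 3.53 ± 0.21, while Shc1 and Grb2, which couple receptors to Ras, fell by 0.27 ± 0.03 and 0.19 ± 0.03, and Cbl, a ubiquitin ligase for the EGF receptor, rose by 0.27 ± 0.03 (SE). Frs2, the paralog of Frs3, fell by 0.11 ± 0.03 (SE, adjusted p = 0.035).

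With 75th percentile scaling, genes that release the ligands went both ways. Of 13 tested shedding genes, 5 rose and 5 fell (median log2 fold change -0.04, against -0.03 over all genes tested), near the shares of all genes called, 27.8% higher and 32.6% lower. With spike-in scaling 8 were higher and 2 lower, and without scaling 7 and 3. Adam17, the main protease for Areg, Hbegf, Tgfa, Ereg and Epgn, fell by 0.58 ± 0.04, and Adam8 by 0.94 ± 0.04 (SE). Rhbdf2 and Frmd8, which bring ADAM17 to the cell surface and keep it there, rose by 0.73 ± 0.03 and 0.44 ± 0.03 (SE). Of 7 genes that carry or bind the ligand precursors, 5 rose and 2 fell (median 0.21), against the same shares over all genes. The number called lower was 0 with spike-in scaling (7 higher), 0 without scaling (6 higher) and 1 whenever any 1 array was left out. Ap1m2, an epithelial sorting adaptor for basolateral cargo, rose by 3.92 ± 0.16 with 1 of 3 hetero arrays above background, and Nkd2, which escorts the Tgfa precursor to the basolateral membrane, by 0.59 ± 0.02 (SE). Cd44 rose by 0.22 ± 0.03, and Cnih1, which helps export the Tgfa precursor, fell by 0.26 ± 0.03 (SE).

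Downstream, 9 of 13 genes induced through ERK rose and 0 fell (median log2 fold change 0.38), where 27.8% of all genes passed as higher. Epha2, an ephrin receptor, was up by 2.19 ± 0.02 log2 units, the immediate early gene Fos by 1.12 ± 0.03, Plaur, the urokinase receptor, by 1.01 ± 0.03, and Etv4, an ETS factor, by 0.79 ± 0.04 (SE). Of the feedback inhibitors of receptor and ERK signalling, 8 of 16 were higher and 6 lower (median 0.10), where 32.6% of all genes passed as lower. This division depended on scaling, with 14 higher and 1 lower under spike-in scaling and 10 and 2 without scaling. The phosphatase genes Dusp4 and Dusp6 rose by 1.02 ± 0.04 and 0.34 ± 0.02 and Spry1 by 0.66 ± 0.04, while Lrig3, a member of the LRIG receptor-regulator family, fell by 1.12 ± 0.02 (SE).

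**Figure D5:**
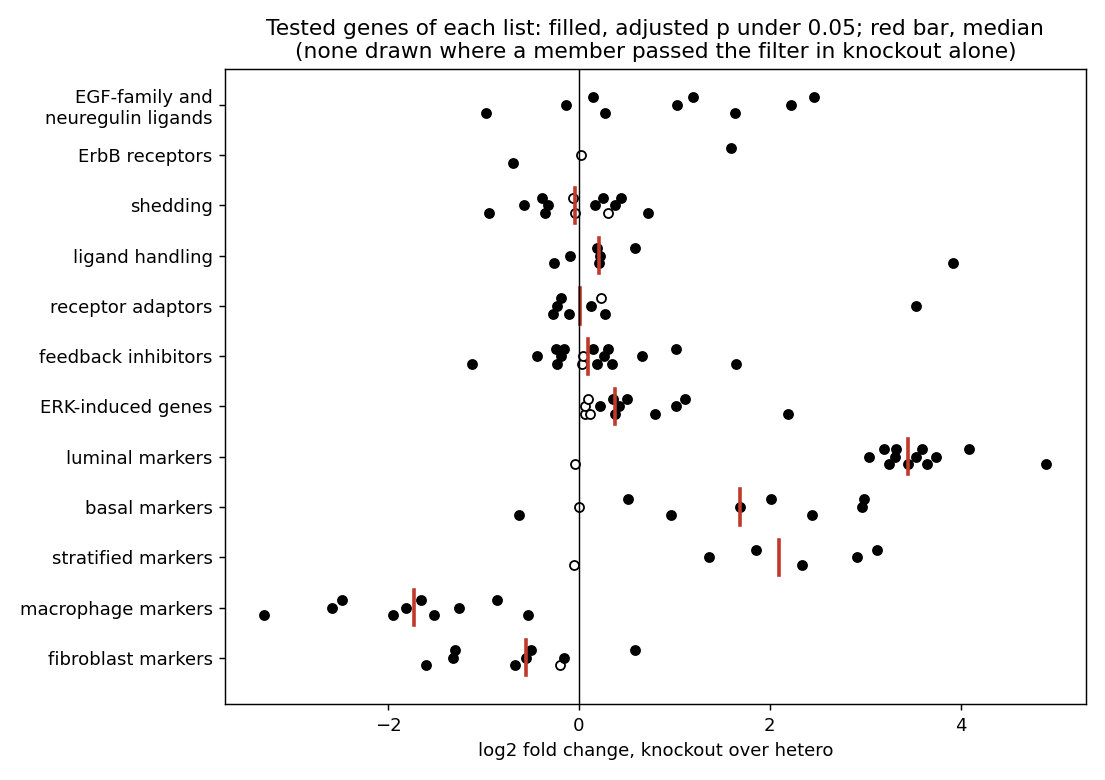
Log2 fold change, knockout over hetero, of every tested gene in the ligand, receptor, pathway and 5 of the cell type marker lists, filled where the adjusted p was under 0.05, with the list median as a red bar except for ligands and receptors. Ligands above background on all 6 arrays spread from -0.97 (Nrg1) to 2.23 (Hbegf), between luminal markers far to the right (median 3.44) and macrophage markers to the left (median -1.73). The point at 2.46 is Nrg2, whose fitted value rests on hetero signals below background.

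Markers of several cell types also differed between the genotypes, some higher and some lower in knockout spheres. Of 13 tested luminal epithelial markers, 12 were higher in knockout spheres and 0 lower (median 3.44), and their summed linear signal, in multiples of the 75th percentile, was 135 to 137 on the knockout arrays, against 12.4 to 12.7 on the hetero arrays. By the rule of smallest p, Krt8, Krt7, Krt19 and Cldn7 are named, which rose by 3.25 to 4.08 log2 units. The luminal marker that did not pass was Esr1 (-0.05 ± 0.05, SE, adjusted p = 0.487), which was above background on every array. Basal markers were higher in 7 of 9 and lower in 1 (median 1.69), with sums of 109 to 112 in knockout spheres and 27.9 to 30.9 in hetero spheres. Markers of stratified epithelium, in which Areg, Hbegf and Epgn are known growth factors, were higher in 5 of 6 (median 2.10), with sums of 7.63 to 7.81 in knockout spheres and 2.49 to 2.59 in hetero spheres. Macrophage markers were lower in 10 of 10 (median -1.73), with sums of 7.71 to 7.78 in knockout spheres and 20.5 to 20.9 in hetero spheres. Fibroblast markers were lower in 7 of 9 and higher in 1 (median -0.55), with sums of 1678 to 1737 in knockout spheres and 2210 to 2434 in hetero spheres. None of the tested luminal, basal, stratified, macrophage or fibroblast markers was below background on all arrays of a genotype, while Myh11 and Krt1 were not tested for low signal and Cd68 had no probe. Against the 27.8% higher and 32.6% lower of all genes, endothelial markers were higher in 2 of 7 and lower in 4 (median -0.16), and adipocyte markers were lower in 2 of 4 (median -0.20). Of 4 tested lymphocyte markers 1 was lower, and Ms4a1, named after its values were seen, passed the filter through the knockout arrays alone. Cidec, Cfd, Cd3d and Cd8a were too dim to be tested. The part of these shifts in the ligand values was not tested, and in bulk samples fewer cells of a type and less RNA per cell cannot be told apart. All marker lists were tested with 75th percentile scaling alone. Spike-in scaling shifted genes upward in knockout spheres, with their middle at 0.39 log2 units in place of -0.03. Whether small marker falls hold under it was not tested. Such falls include fibroblast Col1a1 (-0.16) and endothelial Cldn5 (-0.38) and Kdr (-0.43).

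The slide columns held a single genotype each, hetero in columns 1 and 3 and knockout in columns 2 and 4, so no difference could be taken within a column. The arrays of 1 slide stood in 2 rows, with replicates 1 and 2 of both genotypes in the first and replicate 3 of both in the second. Within the first row the knockout minus hetero difference was 2.21 log2 units for Hbegf, 1.70 for Areg, 0.95 for Epgn, 0.24 for Ereg and -0.96 for Nrg1. Within the second row it was 2.27, 1.49, 1.17, 0.34 and -0.98 in the same gene order. Btc differed by 0.18 in the first row and 0.07 in the second, and Egf by -0.19 and -0.03.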

How the data were processed

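Total RNA of 6 samples was labelled with Cy3 and hybridised to Agilent single-colour arrays, per the labels. The deposited scanner files hold linear spot intensity values from Agilent Feature Extraction 10.7.3.1, with background and spatial trend subtracted and no scaling between arrays, per the file headers. Here control spots (3671 of 62976) and outlier spots were left out, spots of a probe were averaged on the log2 scale, and the 75th percentile of each array was subtracted. A probe with several spots counted as above background where at least a 0.5 share of its spots were. Names came from RefSeq accessions on GRCm38.p6, which matched 27235 of 55681 probes, which served for names and gene order only, since the array header names mm9. Linear models (lmFit, then eBayes) in limma 3.58.1, under R 4.3.3, tested knockout against hetero arrays, with p-values adjusted by the Benjamini-Hochberg method over 15838 genes, or over 35427 probes for the probe fit, and a threshold of 0.05. Precision is limited by having 3 arrays of each genotype. The fit code was run on simulated arrays with independent noise and few changed genes. These settings differ from the data, so that run says nothing about the calls here.

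The ligands, the other gene lists and the tests were chosen with earlier results of these data known. All ligand genes, receptors, Nrg3, Frs2, Frs3 and chromosome 5 neighbours are named, as are the 4 tested genes with the smallest p of each pathway list and of the luminal list. Normexp used the median spot and local background intensity of the deposited files, and both normexp settings were quantile normalized. They thus differ from the main fit in more than background correction. Protein sequences were not used here. The authors' deposited value table, which equals the processed intensity divided by a constant of each array, was one of the alternatives, beside other scalings, background corrections, filters, probe summaries, blocks and single arrays left out.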

Additional observations from a re-analysis of the deposited data

How the results depend on the processing

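Over 21 other settings, 18 planned and 3 chosen after seeing the data (spot medians, no scaling between arrays, and slide column, which is nested in genotype, as a random block), Hbegf, Areg, Ereg, Epgn and Nrg1 kept their direction and their call in all. Tgfa and Nrg2 passed the filter through the knockout arrays alone, and the setting that required detection on all 6 arrays left them out, so their calls in the other settings say nothing about stability. Log2 fold changes ran from 2.16 to 2.65 for Hbegf, 1.14 to 2.05 for Areg, 0.26 to 0.69 for Ereg, 0.45 to 1.44 for Epgn, -1.06 to -0.55 for Nrg1, 0.21 to 1.61 for Tgfa and 0.60 to 2.88 for Nrg2. The number of ligand genes called lower was 2, and it was 1 with quantile, median or spike-in scaling, both normexp settings, no filter, an intensity trend, the replicate block, the slide row block, spot medians and no scaling, since the call of Egf was lost or turned. Leaving out 1 array gave 1 to 2 ligand genes lower and 6 to 7 higher, and 8564 to 8952 genes called in all. The number of ligand probes called lower was 1, and 2 with the slide column block. Egf was reversed to 0.28 with spike-in scaling and to 0.0796 without scaling. Erbb2 was reversed to -0.0010 with normexp at an offset of 50, to -0.000058 at 16 and, when 1 array was left out at a time, ran from -0.0041 (without knockout replicate 2) to 0.0440. Spike-in scaling called 11490 genes higher and 1260 lower and no scaling 8260 and 2164, against 4403 and 5160 with the 75th percentile.

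Same-numbered arrays did not deviate together (correlations of -0.12, -0.02 and -0.01), so the numbers were not taken as pairs. With the replicate block 8511 genes were called, 7 ligand genes higher and 1 lower, and Egf (adjusted p = 0.0947) and Erbb3 (adjusted p = 0.0972) lost their call. Signals near background limit Tgfa, Nrg2, Nrg4, Egf and Epgn. The folds of Tgfa, Nrg2, Egf and Epgn were smaller with both normexp settings, which changed the scaling as well as the background correction. The causes of lost calls were not tested.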
